A study of Mus musculus with 2 samples.

Results

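The histone genes of the Hist clusters were followed in the mandibular prominence, the embryonic swelling that forms the lower jaw and carries the early tongue. They were taken by gene symbol, as every symbol that opens with Hist, a cluster number from 1 to 4 and h, and 65 of the 30723 gene symbols in both tables met this rule, with 69 transcripts. The control library came from 10 pooled embryos of genotype control on a mixed CD1 background at E11.5. The mutant library came from 10 pooled embryos of genotype Kif3a f/f ; Wnt1-Cre on that background, also labelled E11.5. There Wnt1-Cre removes floxed Kif3a, which encodes a motor subunit that cilia need, in neural crest cells and their descendants. Epithelium, muscle precursors, the endothelium of vessels and blood are thus not targeted. The labels do not say whether control embryos carried a floxed allele or Cre. The mutant table is named for day 11, and each table for a different sequencing run, so run and stage cannot be told apart from genotype.

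Histones H2A, H2B, H3 and H4 form the core around which DNA winds, and H1 binds the linker between cores. Most clustered histone genes are known to be transcribed in S phase, when new chromatin is packed. They have no intron, and their mRNA as a rule ends just after a short stem-loop that binds the protein encoded by Slbp, in place of a poly(A) tail. Some of them are also known to give longer transcripts with a poly(A) tail. Replacement histones come from single genes outside the clusters, as a rule carry a poly(A) tail, and many are made throughout the cell cycle. The sources used here do not state whether the libraries were selected for poly(A) RNA.

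The stem-loop was searched in the GENCODE transcripts of these genes on GRCm38. It was found in 43 of the 65 genes, against 0.233% of 21877 protein-coding genes, a count that includes the histone genes themselves. Bases past the end of a transcript were not searched, so a gene without a match may still have a stem-loop. It took 8 forms. One was shared by 23 genes of the H1, H2A, H2B and H3 types, and another by 7 H4 genes. The stem-loops of the most abundant genes and of 2 genes whose models end just after it are given 5′ to 3′ on the gene's strand, the stem-loop in capitals with 5 bases on each side. 
Hist3h2ba: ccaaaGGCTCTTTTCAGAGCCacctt
Hist1h4i: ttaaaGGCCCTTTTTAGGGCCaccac
Hist1h1c: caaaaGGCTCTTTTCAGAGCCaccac
Hist3h2a: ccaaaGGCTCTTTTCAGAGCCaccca
Hist1h3c: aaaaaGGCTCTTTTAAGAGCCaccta
Hist1h2ag: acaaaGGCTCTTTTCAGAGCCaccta
The capitals lie at chr11:58949349-58949364 for Hist3h2ba, chr13:22040966-22040981 (minus strand) for Hist1h4i, chr13:23739512-23739527 for Hist1h1c and chr11:58955172-58955187 for Hist3h2a. They lie at chr13:23745047-23745062 (minus) for Hist1h3c and chr13:22042483-22042498 (minus) for Hist1h2ag.

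The 4 most abundant of the 65 genes all had deposited transcript models that run on past the stem-loop, by 166 bases for Hist3h2ba, 150 for Hist1h4i, 840 for Hist1h1c and 1487 for Hist3h2a. Their GENCODE transcripts each hold AATAAA or ATTAAA, the letters of the common poly(A) signals, in the last 40 bases. These windows are shown with the signal in capitals.
Hist3h2ba: gtattAATAAAtttggttca
Hist1h4i: tttacATTAAAagtattcta
Hist1h1c: cttctAATAAAaagcgttta
Hist3h2a: tgcccAATAAAataagagta
In the order given, they lie at chr11:58949502-58949521, chr13:22040642-22040661, chr13:23740337-23740356 and chr11:58956792-58956811. For Hist1h4i and Hist3h2a that place lies beyond the end of the deposited model. Such letters stood in the last 40 bases of at least 1 GENCODE transcript in 17 of the 65 genes, and in 48.7% of 58797 protein-coding transcripts.

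Levels are given as FPKM, the fragment numbers relative to transcript length and library total, summed over the transcripts of a gene. Each group is 1 library with no replicate, so no test of the genotype exists. Intervals in parentheses are 95% Clopper-Pearson counting intervals on approximate fragment numbers and cover counting error only. For a sum over genes, fragments were pooled and their interval was carried to the ratio of summed FPKM. Long genes weigh more in pooled fragments than in summed FPKM, so intervals of sums are approximate and can be too narrow. Hist3h2a, for example, held about 241 of 383 control H2A fragments but 5.64 of 18.4 FPKM. The deposited coverage amounts to about 24700000 fragments in control and 24500000 in mutant tissue, of which the histone genes took about 1605 and 1517.

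Clustered histone genes were scarce in both libraries. Summed over all 65 they reached 80.8 FPKM in control and 77.8 in mutant tissue, which gives a ratio of 0.963 (0.897 to 1.03). Without Hist1h4i the ratio was 0.816 (0.758 to 0.879), and under TPM-like scaling, which sets the summed FPKM of both libraries equal, it was 1.45 over all 65. Of the 65 genes, 17 had a mean of 1 FPKM or more, 37 were detected below that, and 11 were listed at 0 in both libraries. Of all 30723 genes, 12259 had a mean of 1 FPKM or more. Not at 0 in both were 19484 of all genes and 54 of the 65, so zeros were not more common among the histone genes. The last gene inside this limit was Hist1h4h at a mean of 1.003, and the first outside was Hist1h3i at 0.999. The 11 replacement genes in the tables, for comparison, summed to 3965 FPKM in control and 3203 in mutant tissue, 49.1 and 41.2 times the clustered genes.

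A few genes carried most of the signal. The 2 most abundant, Hist3h2ba and Hist1h4i, held 23.7% of the summed FPKM in control and 42.98% in mutant tissue. The 4 most abundant held 42.7% and 54.4%. The 17 genes of 1 FPKM or more held 79.5% and 82.8%.

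**Figure D1:**
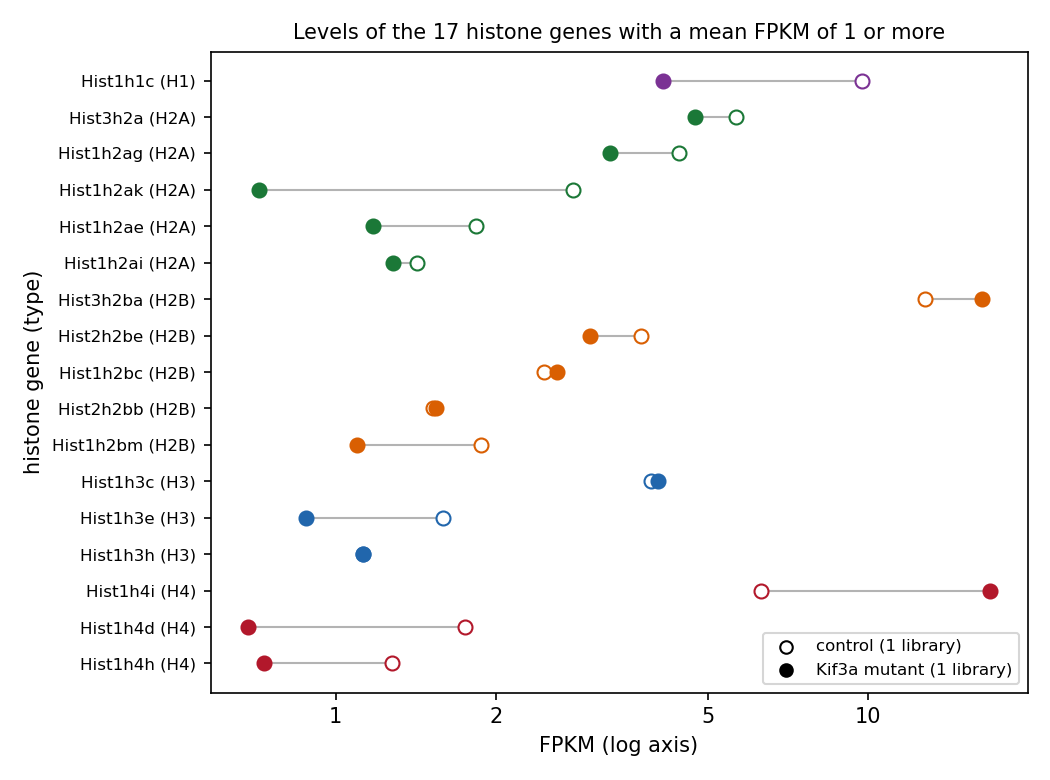
FPKM (log axis) of the 17 histone genes with a mean of 1 FPKM or more, grouped by histone type, with the control library as an open point and the mutant library as a filled point. Hist1h4i and Hist3h2ba lie to the right in the mutant, and Hist1h1c and Hist1h2ak to the left.

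By cluster, the 52 genes of Hist1 on chromosome 13 summed to 55.8 FPKM in control and 50.3 in mutant tissue, which gives a ratio of 0.901 (0.815 to 0.995). The 9 genes of Hist2 on chromosome 3 summed to 6.25 and 6.09 FPKM, a ratio of 0.975 (0.823 to 1.16). The 3 genes of Hist3 on chromosome 11 reached 18.5 and 21.1 FPKM, a ratio of 1.15 (1.01 to 1.30). Of them, 1, the pseudogene Hist3h2bb-ps, was listed at 0 in both. The intervals of Hist1 and Hist3 rest on pooled fragments and end close to 1. Neither ratio is therefore read as a difference beyond counting error. Hist4h4 on chromosome 6, the 1 gene of its cluster, stood at 0.263 and 0.274 FPKM. Per gene, then, the small Hist3 cluster was the most abundant.

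By type, H2B was the most abundant, with 26.7 FPKM in control and 28.02 in mutant tissue over 19 genes, a ratio of 1.05 (0.935 to 1.18). The 15 H2A genes summed to 18.4 and 13.3 FPKM, with a ratio of 0.723 (0.622 to 0.841). H2A was thus second in control tissue and below H4 in mutant tissue. The 13 H4 genes summed to 13.3 and 22.2 FPKM, a ratio of 1.67 (1.34 to 2.09), and without Hist1h4i to 6.95 and 5.16, a ratio of 0.743 (0.502 to 1.10). The 6 H1 genes summed to 11.8 and 5.28 FPKM, a ratio of 0.447 (0.378 to 0.528), most of it Hist1h1c. The 12 H3 genes summed to 10.5 and 8.96 FPKM, a ratio of 0.850 (0.641 to 1.13). These directions depend in part on how the libraries are scaled. Under TPM-like scaling, which moves the median log2 ratio of all genes to 0.40, the H1 ratio was 0.673 and the H4 ratio 2.51, on the same side of 1. That of H2B rose to 1.58 and that of Hist3 to 1.72, both further above 1. The H2A ratio became 1.09, that of H3 1.28, that of H4 without Hist1h4i 1.12 and that of Hist1 1.35, all on the other side of 1. Centring on the median gene, a smaller shift, left these ratios at 0.792, 0.931, 0.813 and 0.986, still below 1. The Hist2 ratio, 0.975 as deposited, was 1.07 after centring and 1.47 under TPM-like scaling.

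**Figure D2:**
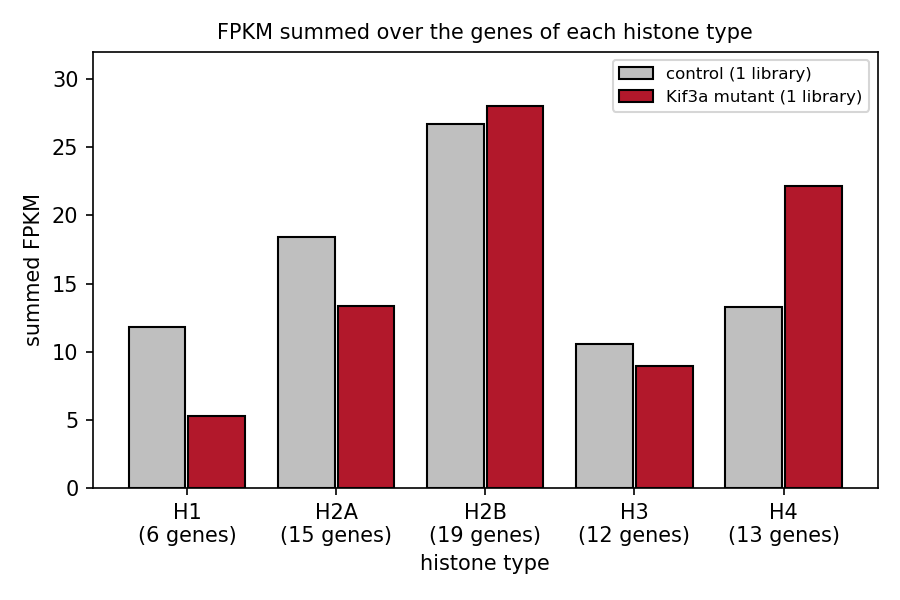
FPKM summed over all genes of each histone type, with the control library in grey and the mutant library in red, 1 library each. The H1 bar falls from 11.8 to 5.28 and the H4 bar goes from 13.3 to 22.2, while the counting intervals for the H2B and H3 ratios include 1.

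Differences of single genes are given as log2((mutant FPKM + 1) / (control FPKM + 1)), called the log2 ratio here, for genes with a mean of 1 FPKM or more. The pseudocount of 1 makes the differences of such low genes look smaller. Of the 17 histone genes compared, 2 were at least 2-fold lower in the mutant, where 1.36% of all 12259 compared genes were, and 1 was at least 2-fold higher, where 0.767% were. Among the 668 compared genes of 300 to 800 bases, the length of most histone transcripts, 5.84% were at least 2-fold lower and 1.8% higher, and among those with a mean of 1 to 20 FPKM 1.63% and 0.886%. The histone shares were 11.8% lower and 5.88% higher, on 2 genes and 1 gene. The median log2 ratio of the 17 was -0.24, between -0.13 for all compared genes and -0.32 for those of 300 to 800 bases. The median thus lay within the range of these backgrounds, and 10 of the 17 lay below the median gene, 58.8%, against 50% of all compared genes, 71.6% of those of 300 to 800 bases and 44.9% of those with a mean of 1 to 20 FPKM.

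**Figure D3:**
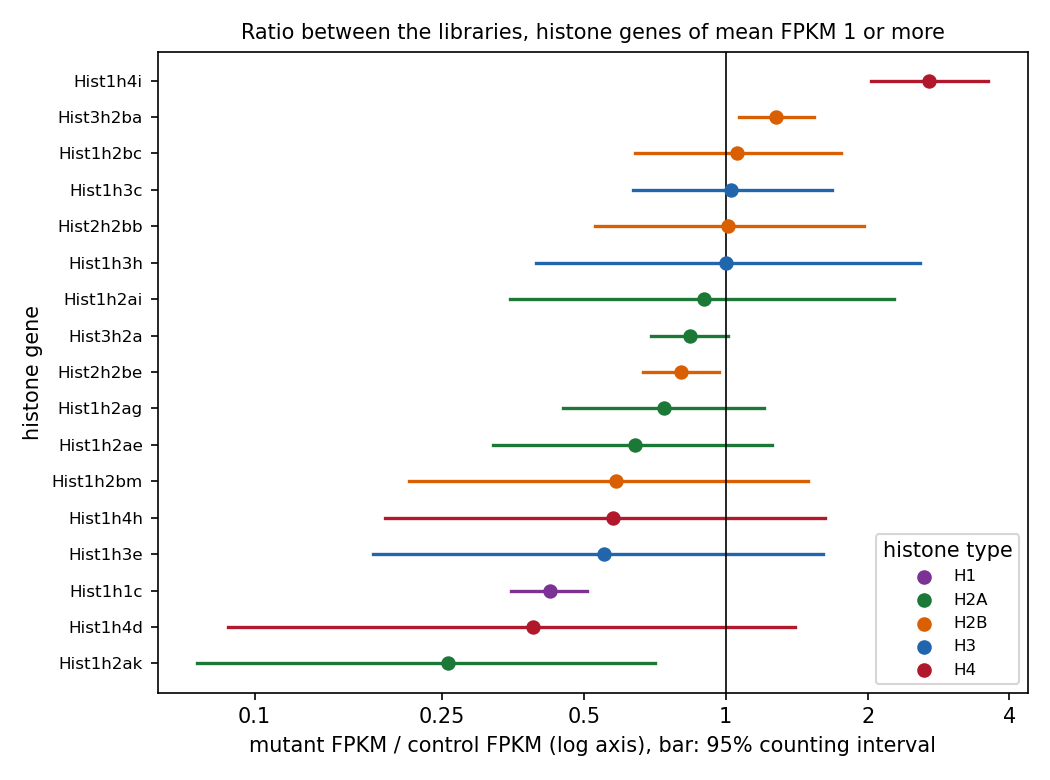
Ratio of mutant to control FPKM (log axis) for the 17 histone genes with a mean of 1 FPKM or more, coloured by type, with bars for 95% counting intervals. The intervals of Hist1h4i and Hist3h2ba lie above 1, those of Hist1h1c, Hist1h2ak and Hist2h2be below 1, and the other 12 include 1.

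The gene that was higher is an H4 gene. Hist1h4i, on the minus strand at chr13:22040816-22041352, was at 6.31 FPKM in control and 17.01 in mutant tissue, a log2 ratio of 1.30 and a ratio of 2.69 (2.04 to 3.60) on about 68 and 201 fragments. It ranked 53 of 12259 compared genes from the highest log2 ratio. It was higher under every alternative computed, with log2 ratios between 0.96 and 1.86. In its GENCODE transcript of 727 bases, 71.1% of all windows of 50 bases occur in no other gene, so most of that transcript can be told apart from its relatives. The deposited model is shorter, at 537 bases, and its share was not computed.

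Of the 11 other detected H4 genes, 8 had lower values in mutant tissue and 3 higher, where 62.3% of all detected genes had lower values. The higher ones were Hist1h4b at 0.243 and 0.661 FPKM, Hist2h4 at 0.184 and 0.502, and Hist4h4 at 0.263 and 0.274, each with an interval that includes 1. Hist1h4d stood at 1.75 and 0.683 FPKM and Hist1h4h at 1.27 and 0.733. These values rest on about 9 and 4 and about 11 and 7 fragments, and their intervals include 1. The genes beside Hist1h4i had values in either direction. Hist1h2ag, the neighbour on the minus strand at chr13:22042477-22042949, stood at 4.42 and 3.28 FPKM. Hist1h2bj beyond it stood at 0.633 and 0.558, and Hist1h2bk on the other side was higher at 0.157 and 0.692 on about 1 and 6 fragments, with an interval that includes 1. Hist1h2ah was listed at 0 in both. Without Hist1h4i, the 21 other genes of this part of Hist1, from 21715763 to 22043610, summed to 17.8 and 11.7 FPKM, a ratio of 0.656 (0.506 to 0.848). The 30 genes of the second part, from 23531044 to 23934851, summed to 31.7 and 21.6, a ratio of 0.681 (0.6001 to 0.771). Both parts of the large cluster were thus lower on the deposited scale once this gene was left out. Their joint ratio without it was 0.736 after centring on the median gene and 1.01 under TPM-like scaling.

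Among the linker histones, Hist1h1c, which encodes H1.2, was the only gene above 1 FPKM. It lies on the plus strand at chr13:23738807-23740367 and stood at 9.75 FPKM in control and 4.12 in mutant tissue, 2.37-fold lower (1.97 to 2.85) on about 364 and 174 fragments, with a log2 ratio of -1.07. It was lower under every alternative that kept it, between -1.22 and -0.58, and less than 2-fold lower with a pseudocount of 5, with centring and with some other scalings. Hist1h1a stood at 0.744 and 0.429 FPKM and Hist1h1b at 0.743 and 0.193, on at most about 13 fragments. Hist1h1e, at 0.298 and 0.266, and Hist1h1d, at 0.279 and 0.275, were nearly level. Hist1h1t, the linker histone of the testis, was listed at 0 in both. All 5 detected H1 genes had lower values in the mutant, where 62.3% of all detected genes did. For Hist1h1a, Hist1h1d and Hist1h1e the intervals include 1.

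Of the H2A genes, 5 had a mean of 1 FPKM or more and all 5 had log2 ratios below 0, where 62.3% of all detected genes had lower FPKM in the mutant. Relative to the median gene, 4 of them were lower and 1 higher. Under TPM-like scaling the log2 ratios of Hist3h2a, Hist1h2ag and Hist1h2ai were 0.29, 0.13 and 0.27. Hist3h2a, on the plus strand at chr11:58954685-58956674, was the most abundant at 5.64 and 4.73 FPKM, a ratio of 0.838 (0.695 to 1.01). Hist1h2ag followed with a ratio of 0.741 (0.451 to 1.20), and Hist1h2ae stood at 1.83 and 1.18 FPKM. Hist1h2ak, on the minus strand at chr13:21753435-21753827, stood at 2.79 and 0.717 FPKM (log2 ratio -1.14), 3.88-fold lower (1.41 to 13.2), on only about 20 and 5 fragments. Its log2 ratio was -0.45 with a pseudocount of 5, and -0.87 under TPM-like scaling and with the length trend removed, each short of 2-fold. Hist1h2ai, at 1.42 and 1.28 FPKM, was nearly level. In the GENCODE transcript of Hist1h2ag 21.1% of the windows of 50 bases are found in no other gene, in Hist1h2ak 43.0% and in Hist1h2ai 9.88%, so reads of these genes could be split among copies. Hist3h2a lies wholly within the span of Trim17, whose transcript there was at 0.0312 and 0.0527 FPKM.

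The H2B genes were led by Hist3h2ba, on the plus strand at chr11:58948911-58949530, the most abundant of all 65 by the mean of both libraries. It stood at 12.8 FPKM in control and 16.4 in mutant tissue, which gives a ratio of 1.28 (1.07 to 1.54) on about 203 and 285 fragments. Hist2h2be, with a transcript of 2618 bases at chr3:96221121-96223738, went the other way at 3.74 and 3.01 FPKM, a ratio of 0.804 (0.667 to 0.967), but its log2 ratio was 0.22 under TPM-like scaling. Hist1h2bc stood at 2.46 and 2.61, Hist2h2bb at 1.53 and 1.54 and Hist1h2bm at 1.87 and 1.09 FPKM, all with intervals that include 1. The GENCODE transcript of Hist2h2be holds 100% windows found in no other gene and that of Hist3h2ba 77.9%. That of Hist2h2bb holds 0%, each shared with the model Gm20628, which also shares 100% of the windows of the nearby H3 gene Hist2h3b. Whether Gm20628 is a separate copy or a model of the same place was not checked.

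Each of the 3 H3 genes above 1 FPKM had an interval that includes 1. Hist1h3c, on the minus strand at chr13:23745042-23745521, was the most abundant at 3.92 and 4.03 FPKM, a ratio of 1.03 (0.635 to 1.68). Hist1h3h stood at 1.12 and 1.13 FPKM and Hist1h3e at 1.59 and 0.879. Hist1h3i, just under the limit, stood at 1.44 and 0.563 on about 12 and 6 fragments.

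**Figure D4:**
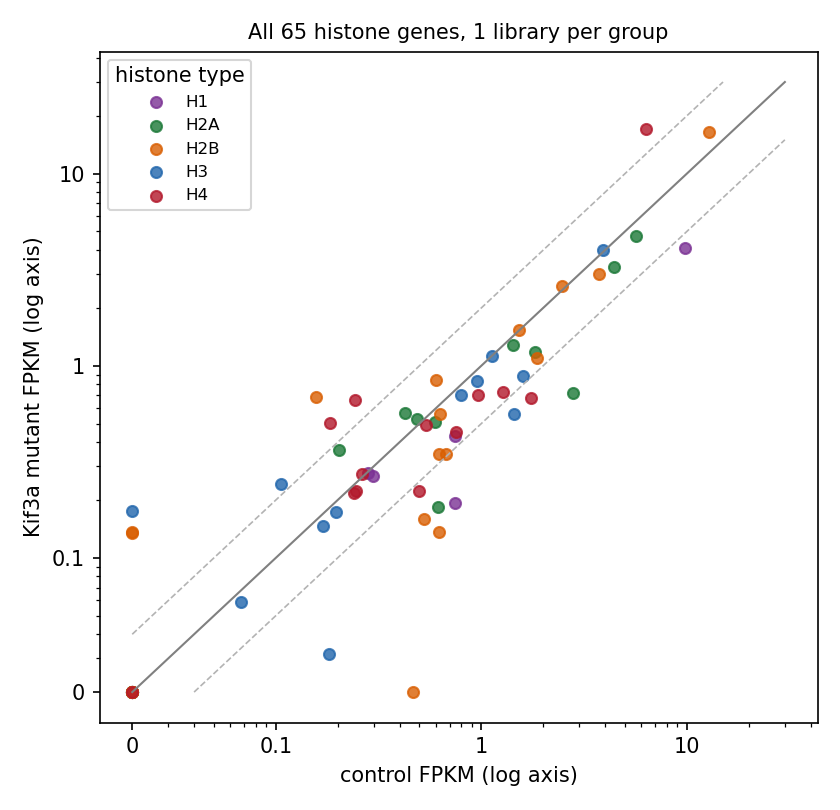
Mutant against control FPKM (log axes) for all 65 histone genes, coloured by type, with genes listed at 0 drawn at the axis edge, a solid line at equal values and dashed lines at 2-fold. Hist1h4i is the point furthest above the line among those over 1 FPKM, and most of the points below 1 FPKM lie under the solid line.

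Below 1 FPKM the values rested on few fragments. The 37 genes detected there summed to 16.5 FPKM in control and 13.3 in mutant tissue, which gives a ratio of 0.808 (0.669 to 0.976), on about 241 and 212 fragments in all. Of these, 25 were lower in the mutant, 67.6%, where 53.0% of all 7225 genes of that level and 54.2% of those of 300 to 800 bases were. Over all 54 detected histone genes 66.7% were lower, against 62.3% of all detected genes. The highest of them after Hist1h3i were Hist1h3g at 0.953 and 0.838 FPKM and Hist1h4m at 0.964 and 0.707. Hist1h2bf was listed at 0.464 and 0, and Hist1h3b, Hist1h2bl and Hist1h2bn at 0 in the control and 0.175, 0.137 and 0.135 in the mutant, on about 1 or 2 fragments. Hist1h2be has 2 transcript models of 2510 and 2506 bases, with 0.527 and 4.43e-05 FPKM in control and 0.0795 and 0.0799 in mutant tissue, and a part of 497 bases overlaps Hist1h1e.

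The 11 genes at 0 in both libraries included the pair of testis genes Hist1h2aa and Hist1h2ba, which encode the H2A and H2B of spermatogenic cells. They also included Hist1h2ao, Hist1h2bq and Hist1h2br, each with 2 transcript models. The median share of windows of 50 bases found in no other gene was 14.4% among these 11, against 56.2% among the 17 genes of 1 FPKM or more. Over all 65 genes the share ran from 0% to 100%, with a median of 50.5%, and it was 98.9% for H1, 60.5% for H4, 54.7% for H2B, 38.02% for H3 and 35.2% for H2A.

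Sums differed between kinds of deposited transcript model, although the abundant genes set them. The 15 genes whose model runs more than 60 bases past the stem-loop summed to 39.1 FPKM in control and 46.2 in mutant tissue, which gives a ratio of 1.18 (1.08 to 1.29). Without Hist1h4i, which has this model type, the other 14 summed to 32.8 and 29.2 FPKM, a ratio of 0.890 (0.810 to 0.979), on the other side of 1. The medians of the 15 were 0.488 and 0.275 FPKM. The 7 genes whose model ends within 60 bases after the stem-loop summed to 12.9 and 10.8 FPKM, a ratio of 0.835 (0.636 to 1.10). The 18 genes whose model ends before it summed to 10.3 and 7.48, a ratio of 0.724 (0.501 to 1.04). The 22 genes in which no stem-loop was found summed to 17.8 and 12.9 FPKM, a ratio of 0.727 (0.627 to 0.843). Some of these have short GENCODE transcripts, such as 393 bases for Hist1h2ak and 312 for Hist1h4k, and bases beyond them were not searched. The other 3 genes summed to 0.620 and 0.348 FPKM. In Hist2h2aa1 and Hist1h2bp the stem-loop belongs to another copy or is spliced out. Hist1h2ao, listed at 0 in both, was not classed because its 2 models lie at separate places. Its first model, at chr13:21810367-21810880, ends before the stem-loop found at chr13:21810898-21810913.

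Many H2A and H2B genes stand head to head. Of 14 neighbouring pairs read away from each other with under 1000 bases between them, 11 join an H2A with an H2B gene, 167 to 334 bases apart. In 0 of these 11 pairs did both genes reach a mean of 1 FPKM, and in 4 at least 1 gene was listed at 0 in both libraries. Among all members, only 5 of 15 H2A and 5 of 19 H2B genes reached that mean, and 5 and 4 were at 0 in both. With so few genes at that level, these counts are not a result about pairing. Hist1h2ag stood at 4.42 and 3.28 FPKM against 0.633 and 0.558 for its partner Hist1h2bj. Hist2h2be stood at 3.74 and 3.01 against 0.425 and 0.565 for Hist2h2ac, and Hist1h2bc at 2.46 and 2.61 against 0.488 and 0.528 for Hist1h2ac. These 3 pairs were chosen after their values were seen. In another pair, Hist1h2an and Hist1h2bp stood at nearly equal levels of 0.615 and 0.620 FPKM in control tissue, against 0.184 and 0.348 in mutant tissue.

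Promoters of 58 of the 65 genes were found in RefSeq on GRCm38.p6, each with 250 bases before and 50 after the start, and were searched on both strands. The promoters of head-to-head H2A and H2B genes can overlap, as those of Hist1h2aa and Hist1h2ba do, so the same motif can count for both types. CCAAT was present in all 46 promoters of H1, H2A, H2B and H3 genes but in 3 of 12 H4 promoters, against 37.4% of 32851 promoters of all genes. TATAAA was present in 56.9% of the histone promoters against 13.6% of all. The octamer ATTTGCAT was found in 7 of 14 H2A and 6 of 16 H2B promoters and in 0 of the other types, against 1.74% of all. The last 100 bases before the start show these differences, with matches to the 3 motifs on either strand in capitals.
Hist3h2ba: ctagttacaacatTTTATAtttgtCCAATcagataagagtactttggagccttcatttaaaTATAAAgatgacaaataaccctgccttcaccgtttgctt
Hist1h4i: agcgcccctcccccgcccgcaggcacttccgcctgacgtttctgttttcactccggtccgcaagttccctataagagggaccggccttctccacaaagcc
Hist2h2bb: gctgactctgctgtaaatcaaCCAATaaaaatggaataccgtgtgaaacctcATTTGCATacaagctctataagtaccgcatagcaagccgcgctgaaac
They lie at chr11:58948811-58948910, chr13:22041363-22041462 (minus strand) and chr3:96269600-96269699. The stretch of Hist1h4i, the gene that was higher, holds none of the 3 motifs, but its searched promoter has a TATAAA further upstream.

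The replacement histone genes were abundant and, relative to the median gene, mostly lower in the mutant library. Each of the 11 had a negative log2 ratio and 10 were under the median gene. Their median was -0.36 against -0.13 for all genes, and 1 of 11 was at least 2-fold lower. H3f3a, which encodes H3.3, stood at 1152 and 876 FPKM and H2afz at 982 and 907, the first the most abundant in the control and the second in the mutant. H2afv, one of the genes of the H2A.Z variant, was lowest at 124 and 44.1 FPKM, a ratio of 0.357 (0.338 to 0.376), and both of its transcripts were lower. H2afx, whose product marks DNA breaks when phosphorylated, was at 304 and 222 FPKM (log2 ratio -0.45).

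The genes that make and process histone mRNA were close to level. Of 21 compared, 0 were 2-fold different, 9 lay below the median gene, and their median log2 ratio was -0.05. Slbp, which encodes the stem-loop binding protein, was the most abundant at 80.5 and 76.0 FPKM. Pou2f1, which encodes the octamer binding factor Oct1, was highest with a log2 ratio of 0.63, and Cdk2 lowest with -0.27. The 20 histone chaperone genes had a median of -0.08 and 0 at 2-fold. Npm1 was the most abundant at 1244 and 1224 FPKM, Atrx, which helps to deposit H3.3, was highest at 0.77, and Hjurp, which loads the centromere variant Cenpa, stood at 0.52.

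S phase genes were expressed strongly in both libraries. The 25 genes had a median log2 ratio of -0.19, 16 lay below the median gene and 0 were 2-fold different. Their values ran from 12.9 to 381 FPKM in the control and from 14.8 to 313 in the mutant. Slbp is also in the previous list. Pcna, the sliding clamp of the replication fork, was the most abundant at 381 and 313 FPKM, and Tyms was lowest with a log2 ratio of -0.44.

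**Figure D5:**
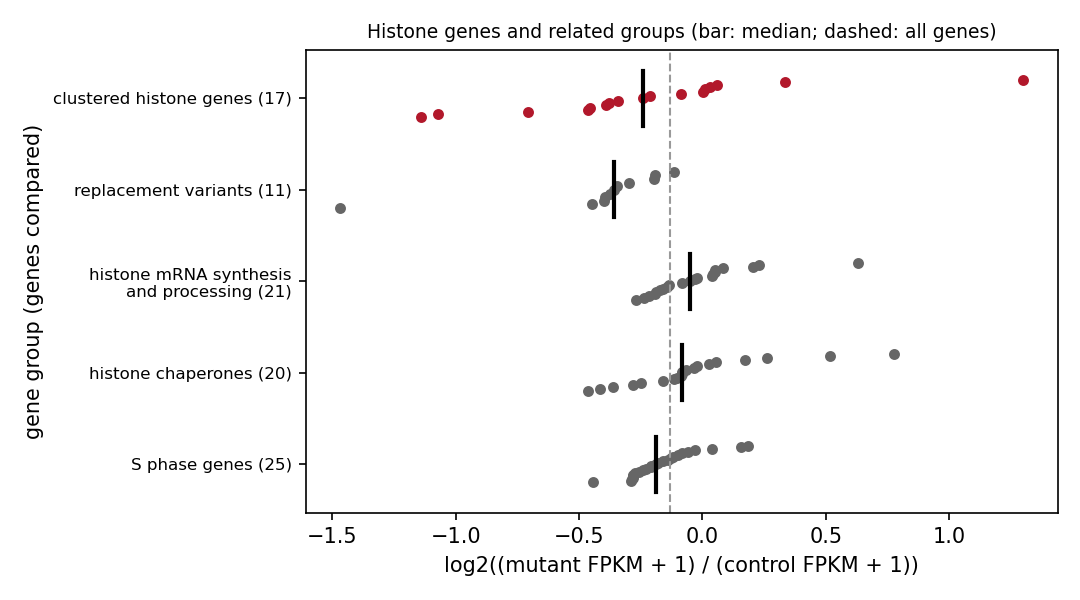
Log2 ratio of each compared gene (points) for the clustered histone genes in red and 4 related groups in grey, with thick bars at group medians and a dashed line at the median of all compared genes. The clustered genes spread from -1.14 to 1.30, wider than the S phase genes, and the replacement variants sit left of the dashed line but for 1 gene. Counting error is unlike between these groups: Hist1h2ak at -1.14 rests on about 20 and 5 fragments, while the S phase genes stood at 12.9 FPKM or more.

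RNAs known to lack a poly(A) tail or to stay in the nucleus varied. Of 7 in the tables, 3 were compared. Malat1, a nuclear noncoding RNA, stood at 10.98 and 63.7 FPKM, and the small nuclear RNA gene Rnu11 was listed at 0 in control and at 36.1 in mutant tissue. Rmrp stood at 3.19 and 4.10 FPKM. Neat1, Rpph1 and Terc were below 1 FPKM with log2 ratios of -0.07, -0.07 and -0.08, and Rnu12 was listed at 0 in both. Their part in the histone values was not tested.

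Cell type markers also differed between the pools. All 9 mandibular mesenchyme markers were present, at 25.7 to 181 FPKM in the control and 34.7 to 165 in the mutant, with a median log2 ratio of -0.24. All 8 erythroid markers had log2 ratios below 0, 7 of them at least 2-fold lower, with sums of 24017 and 6953 FPKM. Of all compared genes 1.36% were at least 2-fold lower, and of all detected genes 62.3% had lower FPKM in the mutant. The 7 oral epithelial markers were all above 0, summing to 137 and 174 FPKM, and the 7 endothelial markers all below 0, summing to 68.1 and 46.8. Relative to the median gene, 6 endothelial markers were lower and 1 was higher. All 8 erythroid markers lay below the median gene and all 7 epithelial markers above it. These values are on the deposited scale, and TPM-like scaling moves the median of all genes to 0.40. Of the 5 muscle markers 3 were compared and all 3 were at least 2-fold lower, with sums of 21.1 and 3.66 FPKM. The part of these cell types in the histone values was not tested, and in such bulk RNA fewer cells of a type and less RNA per cell cannot be told apart.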

How the data were processed

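RNA of 1 control and 1 mutant pool was measured by sequencing. The authors deposited 1 table per library, with a length, a coverage signal and an FPKM value for each of 59120 transcripts, per the file headers. The naming of the tables gives Cufflinks as the tool. The sources used here give no version, aligner or strandedness. Per the submitters' processing notes the build was mm9, but 64 of 65 histone genes overlap the gene of that symbol in the GENCODE annotation of GRCm38, which was therefore used. Deposited starts count from 0 and are printed counted from 1. Lines with displaced columns, 65 per library, were left out.

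FPKM was summed per gene symbol, and genes with a mean of 1 or more were compared with a pseudocount of 1. Fragments were approximated as deposited coverage times length, divided by the yield of 1 fragment (156 bases in the control, 153 in the mutant). Coverage per FPKM differs between genes. The scripts used Python 3.11.15, scipy 1.17.1 and statsmodels 0.14.6 and were tested on simulated data. The genes and lists were chosen with earlier results of these data known, and the named genes are each type's 4 most abundant, 2 highest and 2 lowest, all genes outside Hist1 above the filter, and those past 2-fold. The neighbours of Hist1h4i, the paired genes and the low H1 genes were named after their values were seen. The histone stem-loop was searched as a pattern of 16 bases. No test of the genotype was possible with 1 library per group. The alternatives were 11 chosen at the start and 2 added later.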

Additional observations from a re-analysis of the deposited data

How the results depend on the processing

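The median log2 ratio of the histone genes, -0.24 as reported, was -0.13 with a pseudocount of 5, -0.027 without a filter, 0.060 over the 4 genes averaging at least 5 FPKM, -0.11 after centring on the median gene, -0.14 with 75th percentile scaling, 0.22 with TPM-like scaling and -0.062 with the length trend removed. It was -0.038 with TPM-like scaling without transcripts under 200 bases, an alternative added after seeing the data. The median of all genes moved as well, to 0.40 with TPM-like scaling, and relative to it the histone genes lay below under all alternatives but the filter of 5 and the restriction to transcripts under 1000 bases. The ratio of summed histone FPKM, 0.963 as reported, was 1.05 after centring, 1.06 with 75th percentile scaling, 1.45 with TPM-like scaling, 1.13 with the length trend removed, 1.08 with transcripts under 1000 bases and 1.16 with the added scaling. The count of genes at least 2-fold lower, 2 as reported, was 3 with a pseudocount of 0.1, 1 with the filter of 5, after centring, with 75th percentile scaling, with transcripts under 1000 bases and with the added scaling, and 0 with a pseudocount of 5, TPM-like scaling and the length trend removed. The count at least 2-fold higher, 1 as reported, was 0 with a pseudocount of 5. The share of higher calls among all genes past 2-fold moved with the scaling: 94 higher and 167 lower as deposited, 132 and 129 after centring, and 507 and 77 with TPM-like scaling. Causes were not tested. No paired analysis was possible because each group has 1 library. Depth limits most histone genes: below 1 FPKM single genes rest on at most about 27 fragments.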
